A study of Mus musculus with 2 samples.

Results

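ATP-binding cassette (ABC) proteins and the solute carrier families SLC16, SLC22 and SLCO move drugs, conjugates, bile salts, lipids, lactate and other organic ions across membranes. Their genes were taken from the count table by symbol, as names beginning with Abca to Abcg and a digit, Slc16a, Slc22a or Slco, with 10 or more counts in either library. This gave 65 of the 19294 listed genes, with 39 ABC genes, 11 SLC16 genes, 12 SLC22 genes and 3 SLCO genes. The RefSeq annotation (GRCm38.p6) holds 105 genes of these names, of which 67 were in the table. Slco5a1, with 6 counts in each library, and Slc16a4, with 4 and 2 counts, fell below the minimum, while Abcg4, with 7 and 10 counts, lay just inside it. The other 38 annotated genes, among them Abcb11 and 11 of the 15 Slco genes, were not analysed here. The lowest count in the table was 1 in both libraries. A gene without counts in 1 library was therefore not listed, whatever its counts in the other. All counts and shares below leave such genes out.

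The mRNA-seq compared 1 library of untreated mouse intestinal organoids (mIOs) with 1 library of mIOs treated with dextran sulfate sodium (DSS), a sulfated polysaccharide that injures the intestinal epithelium. Both cultures were at day 4 and came from jejunal crypts of mice of the genotype Lgr5-EGFP-IRES-creERT2, which make EGFP and a tamoxifen-dependent Cre from the locus of the stem cell gene Lgr5. The crypts grew in Matrigel with EGF, Noggin and R-spondin, and the label of the treated sample reads DSS treatment, Day4. The DSS concentration of the sequenced culture was not given in the sources used here, and the age and number of mice were not either. With 1 library per condition there was no replicate, no test was made, and every interval covers counting error only.

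ABC exporters couple ATP hydrolysis at a pair of nucleotide-binding domains to the movement of a substrate, mostly out of the cytosol. Solute carriers use existing gradients, and many work as exchangers or in either direction. In the small intestine, pumps of the apical membrane return drugs, conjugates and plant sterols to the lumen, while basolateral carriers pass others on to the blood. Enterocytes of the villus carry most of this machinery, and crypt cells less of it.

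There were 65493032 counts for the control and 59746968 for DSS. Counts were scaled with TMM factors of edgeR, and a level is given as CPM (counts per 1000000 counts after scaling) or, where genes are compared with each other, as CPM per kilobase of the longest annotated transcript. A log2 ratio is that of DSS to control after scaling. Its 95% interval, given in brackets, is the exact one of Clopper and Pearson. The labels give the cell type as intestinal stem cells, but both libraries held markers of stem and mature cells. The summed level of 5 crypt stem cell markers was 832 CPM in the control and 130 CPM with DSS. For 6 enterocyte markers it was 1878 and 15387 CPM, for 5 goblet cell markers 747 and 9100 CPM, and for 4 enteroendocrine markers 688 and 3461 CPM. The 4 Paneth cell markers summed to 625 and 210 CPM and the 4 tuft cell markers to 8.87 and 4.39 CPM. The part of these shifts in the differences of transporter genes was not tested, and in bulk RNA fewer cells of a type and less RNA per cell cannot be told apart. By RT-PCR of DSS-treated mIOs, the study reported lower Lgr5 and Lyz, with Vil1, Muc2 and Chga at similar levels. In these libraries the log2 ratios were -3.78 for Lgr5, -1.06 for Lyz1, 1.25 for Vil1, 4.98 for Muc2 and 2.60 for Chga. Of 7 mesenchymal markers, 3 were listed, with sums of 1.38 and 1.74 CPM, of 6 immune markers 3, with 12.2 and 23.3 CPM and Ptprc not listed, and of 4 endothelial markers 2, with 0.335 and 2.78 CPM. Of 6 hepatocyte markers, 4 were listed, with sums of 219 and 1283 CPM, most of it in Cyp3a11, a cytochrome P450 that the small intestine also makes.

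Promoter stretches are shown for Abca8b and Slc16a1, the members with the highest and the lowest ratio of DSS to control, for Slc22a13, one of a cluster of neighbours with high ratios, and for the paired sterol exporters Abcg5 and Abcg8. The sequences are from RefSeq (GRCm38.p6) and end at the base before the annotated start site, on the strand of the gene. Only stretches without an annotated UTR were taken, which for Abcg5 and Abcg8 left the bases between the opposed start sites of these genes, read on the strand of Abcg8. Capitals mark the motifs found, out of 8 that were searched on both strands. The core promoter motifs were the TATA box, spelled TATAAA, the GC box, spelled GGGCGG, and the box named after its letters CCAAT. CDX2, a factor of intestinal identity, was searched as TTTATNG. The site of GATA4, a factor of the upper small intestine, was searched as AGATAAG. HNF4A, a factor of enterocyte genes, was searched as CAAAGTCCA. AP-1, which responds to stress and growth signals, was searched as TGANTCA. TCF7L2, the factor at the end of WNT signalling, was searched as CTTTGAT. Read on the opposite strand, the TATA box can overlap the CDX2 site, as it does between Abcg5 and Abcg8.
Abca8b: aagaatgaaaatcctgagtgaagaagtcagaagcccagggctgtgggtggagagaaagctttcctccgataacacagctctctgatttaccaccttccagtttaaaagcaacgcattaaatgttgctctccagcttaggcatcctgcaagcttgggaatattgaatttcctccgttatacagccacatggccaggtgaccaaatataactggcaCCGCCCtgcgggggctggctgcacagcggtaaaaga
Slc22a13: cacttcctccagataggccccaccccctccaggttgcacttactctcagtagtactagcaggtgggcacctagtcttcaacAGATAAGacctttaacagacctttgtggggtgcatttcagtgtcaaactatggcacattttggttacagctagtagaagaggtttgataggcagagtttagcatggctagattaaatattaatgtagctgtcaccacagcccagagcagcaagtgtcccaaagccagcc
Slc16a1: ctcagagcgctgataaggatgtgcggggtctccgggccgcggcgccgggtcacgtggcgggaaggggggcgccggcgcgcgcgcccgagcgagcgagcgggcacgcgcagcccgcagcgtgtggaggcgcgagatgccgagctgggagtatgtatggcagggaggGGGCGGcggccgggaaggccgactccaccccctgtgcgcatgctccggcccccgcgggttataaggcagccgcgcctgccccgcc
Abcg5-Abcg8: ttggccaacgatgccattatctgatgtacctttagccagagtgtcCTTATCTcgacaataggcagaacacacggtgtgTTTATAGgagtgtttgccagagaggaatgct
The 4 stretches differed in composition. The one before Slc16a1, on chr3:104638414-104638663 of the plus strand, had 76.4% G and C and a ratio of observed to expected CpG of 1.04, with a GC box 85 bases before the start. The one before Slc22a13, on chr9:119209106-119209355 of the minus strand, had 47.6% G and C and no CpG at all, with a GATA site 169 bases before the start. The stretch before Abca8b lay on chr11:109995846-109996095 of the minus strand and held a GC box, read on the other strand, 36 bases before the start. The 109 bases between Abcg5 and Abcg8, on chr17:84683012-84683120, held a GATA site, read on the other strand, 64 bases and a CDX2 site 31 bases before the start of Abcg8. Of the members, 48 had a promoter entry, with 58 windows of 300 bases, and 17 had none. GC boxes were in 51.7% of these windows against 35.7% of all 32851 annotated windows, and GATA sites, found before Abcg5, Abcg8, Slc22a13 and Slc22a18, in 6.90% against 3.04%. The shares were 15.5% and 13.6% for TATA boxes, 31.0% and 37.4% for CCAAT boxes and 10.3% and 10.9% for CDX2 sites. Windows of Abcg5 and Abcg8 overlap, so the GATA, CDX2 and TATA matches between their start sites are counted for both genes. Another annotated window of Abcg8 held none of the 8 motifs. The HNF4A site was found in 1 window, that of Abcd3, against 0.475% of all windows, and the AP-1 site in 1, that of Slco2b1, against 7.81%. The TCF7L2 site was in none of the 58 windows and in 3.73% of all windows. Unlike the members, the genes of all annotated windows were not limited to those with 10 or more counts. A match of letters is a description and not a binding site.

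Most members were higher in the DSS library. Of the 65 genes, 50 had a log2 ratio above 0 and 15 below, where 48.0% of all 17235 genes with 10 or more counts in either library lay above 0. A log2 ratio of 2 or more was reached by 15 members, or 23.1%, against 7.87% of all genes. No member had a log2 ratio of -2 or less, against 6.54% of all genes. At a line of 1, 28 members, or 43.1%, were at or above it against 19.3% of all genes, and 2 were at -1 or less against 20.2%. The median log2 ratio was 0.90 for the members, the value of Abcg4 with 7 and 10 counts, and -0.06 for all genes. Over the 57 members with 100 or more counts in either library it was 0.82, and over all such genes -0.12. Scaled by total counts alone, every ratio was lower by 0.26. The members then had a median of 0.65, beside -0.31 for all genes, and 45 lay above 0, beside 38.5% of all genes.

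**Figure D1:**
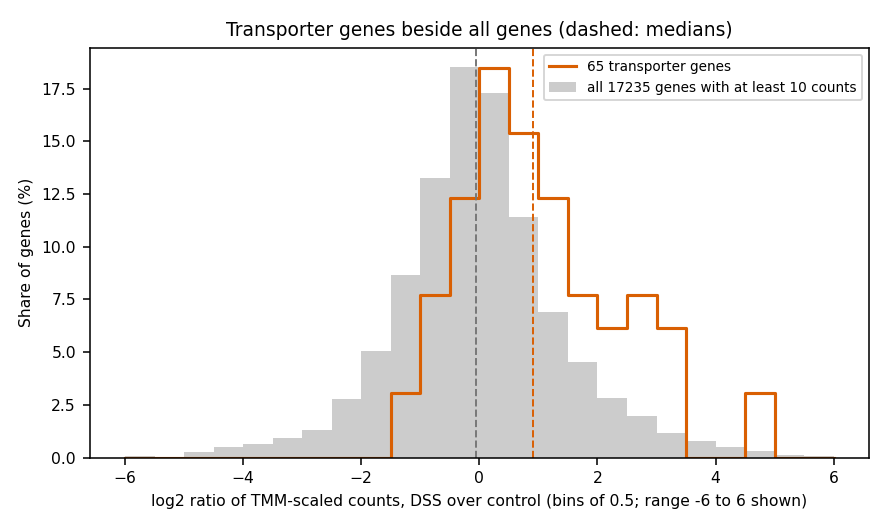
Share of genes (y axis, percent) by log2 ratio of scaled counts, DSS over control (x axis, bins of 0.5). Grey bars are all 17235 genes with at least 10 counts, the line is the 65 transporter genes, and dashed lines are the medians of -0.06 and 0.90. The members reach no lower than -1.11 and are missing from the left tail.

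The interval lay above 0 for 46 of the 65 members, against 38.7% of all genes, below 0 for 11, against 42.7% of all genes, and held 0 for 8. At this depth the counting interval of most genes lay off 0, on one side or the other. Among those 8 were Abca4, Abcb1b, Abcb4, Abcb6, Abcc6, Abcg4 and Slc22a17. Of the 15 members at 2 or more, 11 had an interval that lay wholly at or above 2, as did 4.57% of all genes. Fewer than 10 counts in one of the libraries were found for 3 members, Slc16a8, Slc22a14 and Abcg4. All 3 met the minimum only through the DSS library, and Slc16a8 and Slc22a14 are among the 15 at 2 or more. With 10 or more counts in both libraries, 13 members were at 2 or more. The share of all genes at 2 or more under this minimum is not given here, so this count has no background. With 100 or more counts in either library, 12 of 57 members were at 2 or more, against 792 of 13203 genes. That minimum too can be met through 1 library alone.

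**Figure D2:**
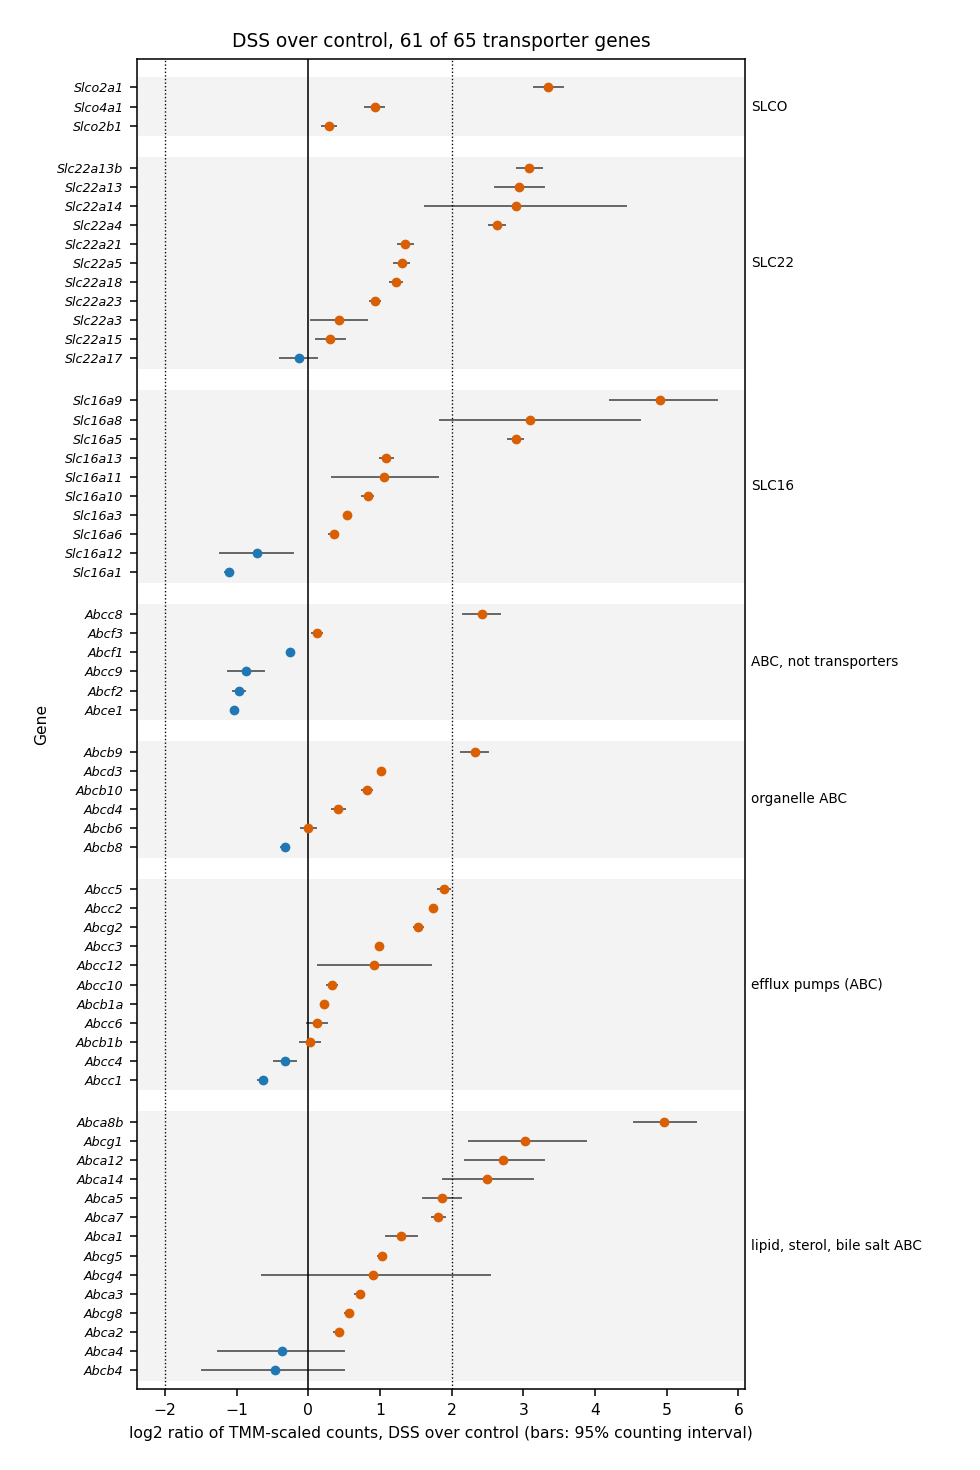
The log2 ratio of scaled counts, DSS over control, on the x axis for 61 of the 65 genes, listed on the y axis by role. Points are ratios, bars are 95% counting intervals and dotted lines mark 2 and -2. Every role group but the ABC proteins that are not transporters has most of its points to the right of 0.

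The ABC transporters of lipids and sterols had the highest median of the ABC groups, 1.16 over 14 genes. Of these, 12 were above 0 and 4 were at 2 or more, against 48.0% and 7.87% of all genes. The figures label this group with bile salts as well, although its 14 genes hold no bile salt pump. Abca8b belongs to the ABCA subfamily, whose proteins mostly carry lipids. It had 49 counts in the control and 1166 with DSS, or 0.685 and 21.3 CPM, a ratio of 31.1-fold (interval 23.4 to 42.4). Its log2 ratio of 4.96 was the highest among the members, and 99.7% of all genes lay below it.

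Abcg1, an exporter of cholesterol to lipoproteins, had 16 and 99 counts and a log2 ratio of 3.02 (interval 2.25 to 3.88). Abca12, which loads lipids into the lamellar granules of skin, had 35 and 176 counts and a ratio of 2.72. Abca14 had 28 and 120 counts and a ratio of 2.49 (interval 1.88 to 3.14). These genes were barely present in the control library, at 0.0383, 0.0535 and 0.0727 CPM per kilobase. Abca1, which hands cholesterol to apolipoprotein A-I, went from 259 to 487 counts, a log2 ratio of 1.30.

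Abcg5 and Abcg8 form the obligate pair that pumps plant sterols and cholesterol back into the lumen, and they were the most abundant genes of the lipid group in both libraries. Abcg5 had 4341 counts in the control and 6746 with DSS, a log2 ratio of 1.02 (interval 0.97 to 1.08). Abcg8 had 5975 and 6768 counts, a ratio of 0.57 (interval 0.52 to 0.62). The intervals of these neighbours did not overlap. The promoter stretch shown above, which they share, belongs to an annotated start of Abcg8 that is not its only annotated start. Exons of the 2 genes overlap by 82 bases on opposite strands. Per kilobase, Abcg5 was at 25.8 and 52.5 CPM and Abcg8 at 22.8 and 33.8 CPM, so Abcg5 was 1.13 times the level of Abcg8 in the control and 1.55 times in the DSS library. Abca3, best known for lung surfactant, came next in the group, at 8.40 and 13.8 CPM per kilobase and a log2 ratio of 0.72. Of the remaining members, Abca5 was at 1.86, Abca7 at 1.81 and Abca2 at 0.43, while Abcg4, with 7 and 10 counts, was at 0.90 (interval -0.64 to 2.53). Abcb4, the phosphatidylcholine floppase of bile, and the retinal Abca4 had at most 32 counts in either library and intervals that held 0.

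The efflux pumps of drugs and conjugates had a median of 0.33 over 11 genes. None was at 2 or more, a line reached by only 7.87% of all genes. This median depended on the setting, at 0.076 with total counts and 0.91 without the members that share sequence with another gene. The value of 0.91 is that of Abcc12, with 25 and 36 counts. The ratios ran from -0.63 for Abcc1 to 1.90 for Abcc5, while the interval of Abcc6 overlapped those of Abcb1a and Abcb1b. Abcc2 (MRP2), the apical pump of glucuronide and glutathione conjugates, had 27828 counts in the control and 71053 with DSS. This was 389 and 1300 CPM, a ratio of 3.34-fold (interval 3.30 to 3.39). Abcc3 (MRP3), its basolateral counterpart, had 21853 and 32990 counts and a log2 ratio of 0.98. Abcg2 (BCRP), an apical pump of urate, sulfates and many drugs, had 2993 and 6628 counts and a ratio of 1.54. Abcc5 (MRP5), which exports cyclic nucleotides, had the highest ratio of the group, 1.90, from 1496 to 4253 counts.

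P-glycoprotein, the broad drug pump, is encoded in mice by the neighbours Abcb1a and Abcb1b. Abcb1a had 20597 and 18242 counts, a log2 ratio of 0.21 (interval 0.18 to 0.24), and Abcb1b had 947 and 738 counts and a ratio of 0.03. With total counts both were below 0, at -0.04 and -0.23. Of the 50-base windows of the longest Abcb1b transcript, 18.0% also occur in Abcb1a transcripts, so some reads cannot be placed with certainty. The sum of both genes, which reads misplaced between them do not change, went from 21544 to 18980 counts, a log2 ratio of 0.21.

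By level per kilobase of the longest transcript, the order of the pumps differed between the libraries. Per kilobase, the control library had Abcc3 at 61.0, Abcb1a at 57.6 and Abcc2 at 48.4 CPM. In the DSS library, Abcc2 led at 162 CPM, followed by Abcc3 at 121 and Abcb1a at 66.8. Abcc2 was 0.841 times the level of Abcb1a in the control and 2.42 times in the DSS library. The longest annotated transcript of Abcc2 has 8027 bases, against 5005 for Abcc3 and 4997 for Abcb1a, which lowers its level per kilobase. In CPM, without length, Abcc2 led in both libraries, at 389 in the control beside 305 for Abcc3 and 288 for Abcb1a. Abcc1 (MRP1), the basolateral pump of leukotriene C4 and conjugates, was lower with DSS, from 5689 to 2799 counts and at a log2 ratio of -0.63. Abcc4 (MRP4), which carries cyclic nucleotides and prostaglandins, was at -0.32. Abcc10 was at 0.33 and Abcc12, with 25 and 36 counts, at 0.91, and Abcc6, at 0.13, had an interval that held 0 and was at -0.13 with total counts.

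**Figure D3:**
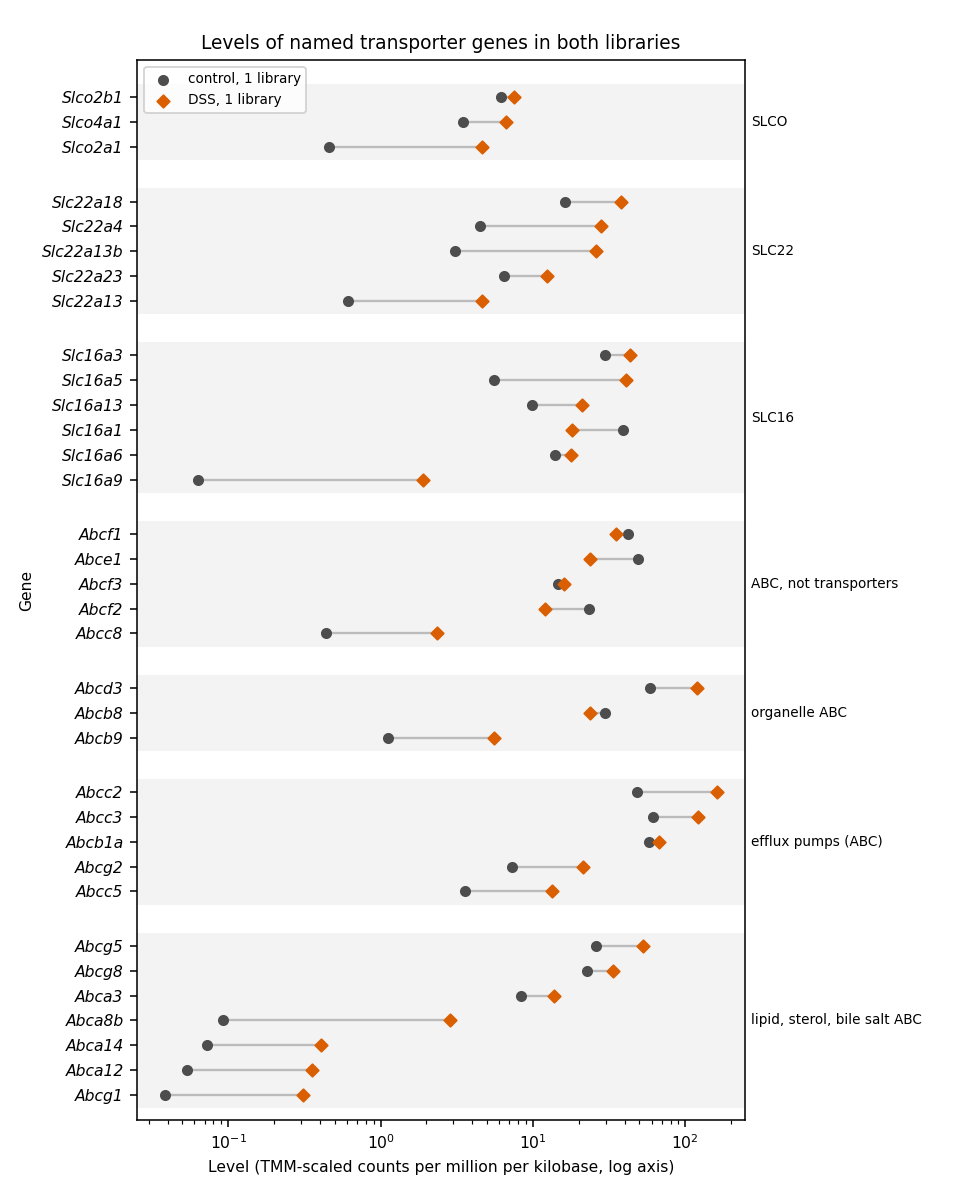
Level of 34 of the 37 genes named by rule, in CPM per kilobase (x axis, log scale), with genes on the y axis by role. Circles are the control library and diamonds the DSS library, 1 library each, joined by a line. Abcc2 moves from 48.4 to 162, Slc16a1 moves the other way, from 38.8 to 18.0, and Abca8b and Slc16a9 start below 0.1.

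ABC transporters of organelles had a median log2 ratio of 0.62 over 8 genes, with 6 above 0, against 48.0% of all genes. Abcd3 (PMP70), which imports fatty acyl-CoA into peroxisomes, had 14711 and 22786 counts and a ratio of 1.02, and at 58.9 and 119 CPM per kilobase it was among the 3 most abundant members in both libraries. Abcb9 (TAPL), a lysosomal peptide transporter, had 291 and 1109 counts and a ratio of 2.32. The mitochondrial members Abcb10 and Abcb8 lay on opposite sides of 0, at 0.82 and -0.33, and Abcb8 went from 6558 to 3989 counts. Abcb6, at 0.00, held 0 in its interval, was at -0.25 with total counts, and shares 66.8% of its 50-base windows with the overlapping transcript Gm29253. Abcd4, which works in lysosomal cobalamin export, was at 0.42.

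The ABC proteins that are not transporters had the only negative median of the role groups, -0.56 over 6 genes. Abce1, which splits ribosomes after termination, had 13207 counts in the control and 4942 with DSS. This was a log2 ratio of -1.03 (interval -1.08 to -0.98), or 2.04-fold lower. Abcf2, a related ribosome-associated ATPase, had 4317 and 1690 counts and a ratio of -0.96, and Abcf1, an initiation factor partner, was at -0.25. Abcf3 was at 0.12, and at -0.13 with total counts. The sulfonylurea receptors, regulatory subunits of ATP-sensitive potassium channels, lay on opposite sides of 0. Abcc8 (SUR1), the form of endocrine cells, had 154 and 628 counts and a ratio of 2.42 (interval 2.16 to 2.68). Abcc9 (SUR2), the form of muscle and vessels, had 450 and 189 counts and a ratio of -0.86. The enteroendocrine marker Chga was at a log2 ratio of 2.60 and Chgb at 2.30, and their part in the Abcc8 value was not tested.

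The SLC16 genes encode carriers of lactate, pyruvate, short-chain fatty acids and other small acids. Of these, 8 of 11 were above 0, against 48.0% of all genes, and the median was 0.83. The lactate carriers took opposite directions. Slc16a1 (MCT1), the carrier of lactate, pyruvate and butyrate, had 12279 counts in the control and 4355 with DSS. Its log2 ratio of -1.11 (interval -1.16 to -1.06) was the lowest among the members, although 18.0% of all genes were lower still. Slc16a3 (MCT4), the lactate exporter of glycolytic cells, had 9285 and 10352 counts and a ratio of 0.55. Per kilobase, Slc16a3 was 0.772 times the level of Slc16a1 in the control and 2.43 times in the DSS library. Bsg, the chaperone that brings both to the membrane, was at -0.87, from 168253 to 70421 counts, and Emb, the alternative partner, had 75 and 94 counts.

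Slc16a5 (MCT6), a carrier of drugs such as bumetanide, had 927 and 5257 counts, a ratio of 7.42-fold (interval 6.92 to 7.97). Its level per kilobase went from 5.54 to 41.1 CPM, next to the 43.7 CPM of Slc16a3 in the DSS library. Slc16a9 (MCT9), linked to carnitine export, had 17 and 390 counts and a log2 ratio of 4.91 (interval 4.21 to 5.70). Exons of Gm7097 and Gm9877 on the opposite strand cover 12.7% and 10.8% of its exon bases. Such overlaps were 21.5% for Slc16a6 with Amz2, 10.3% for Abcb10 and 10.1% for Abcb1a. The strand setting of the counting was not given in the sources used here. Slc16a8 (MCT3), the lactate carrier of the retinal pigment epithelium, had 6 and 39 counts and a ratio of 3.09 (interval 1.84 to 4.62). The neighbours Slc16a11 and Slc16a13 were at 1.06 and 1.09, although Slc16a11 had 27 and 43 counts and Slc16a13 1774 and 2884. Slc16a10 (TAT1), which carries aromatic amino acids, was at 0.83, and Slc16a6 at 0.35. The creatine carrier Slc16a12, with 105 and 49 counts, was at -0.71.

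Of the 12 SLC22 genes, 10 were above 0 and 4 at 2 or more, against 48.0% and 7.87% of all genes. The family had a median of 1.26. It stood beside 1.16 for the lipid group, and this order turned with 10 or more counts in both libraries, at 1.22 against 1.30, and with a minimum of 50 counts, at 1.22 against 1.81. Without the members that share sequence with another gene the SLC22 median was 0.94. The members at 2 or more lie in gene clusters, each of which held neighbours on the same side of 0. On chromosome 9, Slc22a14, Slc22a13 and Slc22a13b follow each other. Slc22a13 (OAT10), an exchanger of urate and nicotinate, had 87 and 509 counts and a log2 ratio of 2.94 (interval 2.61 to 3.28). Slc22a13b, annotated as a transcribed pseudogene, had 320 and 2069 counts and a ratio of 3.08. It thus had more counts than its protein-coding neighbour in both libraries. The transcripts of this pair are alike, since 36.0% of the 50-base windows of Slc22a13 and 49.9% of those of Slc22a13b occur in the other, so their separate values are uncertain. The sum went from 407 to 2578 counts, a log2 ratio of 3.05 (interval 2.90 to 3.21). Slc22a14, with 6 and 34 counts, was at 2.89 (interval 1.62 to 4.43) and met the count minimum only through the DSS library.

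On chromosome 11, Slc22a5, Slc22a21 and Slc22a4 follow each other. Slc22a4 (OCTN1), the carrier of the dietary antioxidant ergothioneine, had 732 and 3462 counts and a log2 ratio of 2.63 (interval 2.51 to 2.75). The carnitine carriers beside it were higher by less, Slc22a5 (OCTN2) at 1.30 with 1128 and 2126 counts and Slc22a21 (OCTN3) at 1.35 with 1053 and 2057 counts. Slc22a5 and Slc22a21 share 26.9% of the windows of Slc22a5, and their sum was at 1.33 (interval 1.25 to 1.40). The interval of Slc22a4 did not overlap those of its neighbours. The group was led in level by Slc22a18, at 16.2 and 37.7 CPM per kilobase and a ratio of 1.22, and Slc22a23 was at 0.94. The organic cation transporter Slc22a3 (OCT3) was at 0.43 with 110 and 113 counts, Slc22a15 at 0.31 with 419 and 396, and Slc22a17, a lipocalin receptor, at -0.13 with 296 and 206.

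All 3 SLCO genes were above 0, as were 48.0% of all genes. Slco2a1, the prostaglandin transporter that clears prostaglandin E2 from outside the cell, had 234 counts in the control and 1814 with DSS, or 3.27 and 33.2 CPM. The ratio was 10.1-fold (interval 8.85 to 11.7). Slco4a1, a carrier of thyroid hormone and other anions, had 774 and 1123 counts and a log2 ratio of 0.93. Slco2b1, an intestinal carrier of statins and steroid sulfates, had 1928 and 1802 counts and a ratio of 0.29. Per kilobase, Slco2b1 remained the most abundant of them, at 6.15 and 7.52 CPM, while Slco2a1 went from 4.55% to 24.8% of the level of the family.

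Summed over each family, the scaled counts were higher with DSS in all 4 families. The ABC genes went from 171520 to 228017 counts, a log2 ratio of 0.80, and the SLC22 genes from 9949 to 19165 counts, a ratio of 1.33. The SLCO genes went from 2936 to 4739 counts, a ratio of 1.08. The SLC16 genes had nearly equal counts, 31449 and 31215, which after scaling was a ratio of 0.38. The make-up of the families differed as well. Abcc2 made up 9.09% of the level of the ABC family per kilobase in the control and 19.4% with DSS. Slc16a1 went from 36.6% to 11.5% of the SLC16 level and Slc16a5 from 5.22% to 26.2%, while Slc16a3 was at 28.2% and 27.8%. In the SLC22 family, Slc22a4 went from 8.97% to 19.7% and Slc22a13b from 6.09% to 18.3%. The longest annotated transcript of Slc22a13b, of 1458 bases, is shorter than the 2001 bases of Slc22a13, which raises its level per kilobase.

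**Figure D4:**
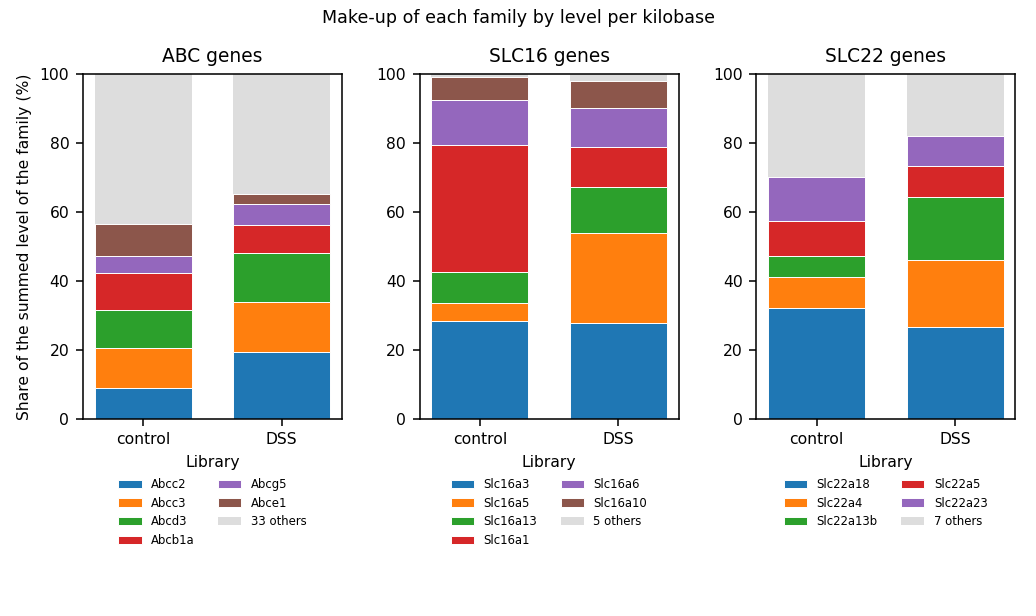
Share of each gene in the summed level of its family (y axis, percent of CPM per kilobase) in the control and DSS libraries (x axis), for ABC, SLC16 and SLC22 genes. Coloured blocks are genes among the 5 most abundant in either library and grey blocks are all remaining genes. The block of Slc16a1 shrinks from 36.6% to 11.5% as that of Slc16a5 widens from 5.22% to 26.2%.

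Genes that work beside these transporters were taken from a list of 20 partners and other exporters, of which 19 were in the table. At 2 or more lay 10 of them and at -2 or less lay 4, against 7.87% and 6.54% of all genes. The median log2 ratio of the list was 2.14. The apolipoproteins Apoa1, the acceptor of Abca1, and Apoa4 were at 5.27 and 4.54, the apical scaffold protein Pdzk1 at 4.18 with 232 and 3214 counts, and the ileal bile acid transporter Slc10a2 at 3.97 with 78 and 932 counts. The members of this list at -2 or less were the chloride channel Cftr, itself an ABCC protein, at -2.19, the nucleoside transporters Slc29a1 at -2.02 and Slc29a2 at -3.24, and the scaffold protein Slc9a3r2 at -2.44. These 4, like Bsg, Emb and Hnf4a, were named after their values were seen.

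The nuclear receptors and regulators that control many transporter genes differed less. Of 22 listed genes, 21 were in the table, 16 were above 0, 2 were at 2 or more and none was at -2 or less, with a median of 0.44. The shares over all genes were 48.0% above 0, 7.87% at 2 or more and 6.54% at -2 or less. Fgf15, the enterokine induced by bile acids, had 51 and 302 counts and a ratio of 2.95, and Hnf4g was at 2.24 with 5005 and 18020 counts. Nr1i3 (CAR), a sensor of foreign compounds, was at 1.81, and Nr1h4 (FXR), the bile acid receptor, at 1.11. Hnf4a was at 0.05, from 52316 to 41359 counts.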

How the data were processed

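Gene expression was measured by mRNA-seq from stranded mRNA libraries, 1 of control and 1 of DSS-treated mIOs. Whole-number read counts by NCBI gene identifier were deposited by the authors, and per the labels HISAT2 and StringTie were used. The versions, genome build and strand setting are not given in the sources used here. Files of each sample by itself carry FPKM in their names, yet their values equal these counts for all 19294 genes, so they were left out.

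Counts were scaled with TMM factors (edgeR 4.0.16, R 4.3.3), 1.09 for the control and 0.915 for the DSS library. Log2 ratios carry exact Clopper-Pearson intervals (scipy 1.17.1), and the computation was tested on simulated counts. Lengths, UTRs and shared 50-base windows came from GENCODE vM21 (GRCm38). Other steps used Python 3.11.15, pandas 2.3.3, numpy 2.4.6 and matplotlib 3.10.9.

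Members, role groups and lists were chosen with earlier results of these data known. Full values are given for members at or past 2 or -2 with 100 or more counts in either library and, in each role group, for the 3 largest differences among members with at least 50 counts and the 3 highest levels per kilobase. Of the lists of partners and of regulators, the 4 largest differences among genes with at least 50 counts are given. This rule names 37 members, and the remaining members are given more briefly. Of the 65 members, 4 are counted in the groups and sums but are not reported here one by one. The scaling was replaced by total counts, by upper quartile factors, by size factors of DESeq2 1.42.0 or by centring on the median of all genes, and a prior count of 2, other count minimums and a line of 1 were tried. A further one, without members that share sequence, was added after the data were seen.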

Additional observations from a re-analysis of the deposited data

How the results depend on the processing

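With DESeq2 size factors, the median of the members was 0.91, with a prior count of 2 it was 0.83, and with total counts 0.65. No direction of a group or family turned under any alternative tried. The number of members at a log2 ratio of 2 or more ran from 13 to 15 under the alternatives that kept this line, with none at -2 or less. At a line of 1 it was 28, and at -1 it was 2. Total counts lowered the medians to 0.91 for lipid transporters, 0.076 for efflux pumps, 0.36 for organelle transporters, -0.81 for ABC proteins that are not transporters, 0.57 for SLC16, 1.0 for SLC22 and 0.67 for SLCO. They put the summed families at 0.54 for ABC, 0.12 for SLC16, 1.08 for SLC22 and 0.82 for SLCO. With total counts, 1087 of all genes reached 2 and 1521 reached -2, against 1356 and 1127 with TMM factors. Upper quartile factors gave medians of 0.92 for SLC16, 0.42 for efflux pumps and 0.71 for organelle transporters, and sums of 0.89 for ABC, 0.47 for SLC16, 1.42 for SLC22 and 1.17 for SLCO. Centring gave sums of 0.86 for ABC, 0.44 for SLC16 and 1.39 for SLC22. Without a count minimum the medians were 0.69 for SLC16 and 0.66 for SLCO, with at least 10 counts in both libraries 0.69 for SLC16, and with 50 or more counts in either library 0.55 for SLC16 and 1.81 for lipid transporters. These last follow from which genes enter the median. Without members that share at least 5% of 50-base windows, the medians were 0.94 for SLC22, 0.91 for efflux pumps and 0.82 for organelle transporters. This alternative was chosen after seeing the data, and its 0.91 is the value of Abcc12, with 25 and 36 counts. No paired analysis was possible because each condition had 1 library, and for the same reason no replicate could be left out. Depth limits the 7 members with fewer than 50 counts in both libraries.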

Other observations

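In the promoter windows, the median ratio of observed to expected CpG was 0.691 over 21 members at a log2 ratio of 1 or more and 0.630 over 25 members between -1 and 1, and it was 1.03 over the 2 members at -1 or less. For all genes with a window it was 0.463 over 2336 genes at 1 or more and 0.754 over 7484 genes between -1 and 1, and 0.746 over 2237 genes at -1 or less. Spearman's rho across genes was -0.23 over 48 members and -0.23 over 12057 genes, which share their libraries and are not independent replicates, so it is given as a description.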
